A study of Mus musculus with 4 samples.

Results

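The genes described here are 8 interferon regulatory factor (IRF) genes, chosen by their symbols in the deposited tables: Irf1, Irf2, Irf3, Irf4, Irf5, Irf7, Irf8 and Irf9. They are 8 of 11027 listed genes, and all 8 passed the filter on low counts. RNA was sequenced from CD4+ T cells in 4 libraries, 1 per group, and the study asked how Tox2, an HMG-box DNA-binding protein, acts in the differentiation of T follicular helper (Tfh) cells. The libraries are called by culture and virus: Tfh-like Tox2, Tfh-like GFP, Th0 Tox2 and Th0 GFP. All came from wild type C57BL/6 mice aged 7 to 8 weeks, as naive CD4+ cells of spleen and lymph nodes that were activated, transduced with a retrovirus in neutral conditions and sorted for GFP. The Tox2 virus carried Tox2 and GFP and the control virus was empty except for GFP, so Tox2 was forced above its own level. IFN-gamma, IL-4 and IL-2 were blocked by antibodies in both cultures, and IL-6 was added to the Tfh-like culture alone. The labels do not say how many mice or cultures gave each library.

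IRF proteins share a DNA-binding domain that reads GAAA repeats, and they differ in what switches them on. Irf1 is induced by interferon-gamma and activates antigen presentation genes, while Irf2 binds the same sites and can oppose it. Irf3 and Irf7 are phosphorylated by TBK1 and IKK-epsilon downstream of nucleic acid sensors and drive type I interferon genes, and Irf9 is the DNA-binding subunit of the interferon-activated complex ISGF3. Irf5 acts downstream of Toll-like receptors, mainly in myeloid and B cells. Irf4 and Irf8 are largely restricted to immune cells and bind DNA with partners such as BATF-JUN and PU.1 or SpiB. In CD4+ T cells, Irf4 is induced by T-cell receptor signalling and is needed for Th17 and Tfh programs, and Irf8 is best known from dendritic cells, macrophages and B cells.

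Total counts ran from 13015283 to 13673774 per library, at which a count of 0 allows up to 0.219 to 0.230 CPM (counts scaled to library size). Tox2 had 32246 counts in Tfh-like Tox2, 851 in Tfh-like GFP, 35297 in Th0 Tox2 and 144 in Th0 GFP, so both Tox2 libraries stood far above both GFP libraries. CD4 T-cell markers summed to 6222, 5928, 6288 and 5952 CPM in the same order, with 11 of 14 listed. Of 9 B-cell markers 2 were listed, Cd79a and Ebf1, while Ms4a1 and Pax5 were not listed. Of 12 myeloid markers 3 were listed, of 9 dendritic-cell markers 3, of 7 NK-cell markers 2, of 2 CD8 T-cell markers 1 and of 4 gamma-delta T-cell markers 0.

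Promoter sequence is shown for Irf4, which changed most with Tox2, and for Irf1 and Irf8, which changed most with the culture. It is also shown for Irf2, the factor that shares Irf1 sites. All 8 genes matched RefSeq promoters (GRCm38.p6), with 11 windows of 300 bases that run from 250 bases before a start site to 50 bases after it. The first window of each is printed, 5′ to 3′, with matches to the searched motifs in capitals.
Irf4 (chr13:30748983-30749282, plus strand): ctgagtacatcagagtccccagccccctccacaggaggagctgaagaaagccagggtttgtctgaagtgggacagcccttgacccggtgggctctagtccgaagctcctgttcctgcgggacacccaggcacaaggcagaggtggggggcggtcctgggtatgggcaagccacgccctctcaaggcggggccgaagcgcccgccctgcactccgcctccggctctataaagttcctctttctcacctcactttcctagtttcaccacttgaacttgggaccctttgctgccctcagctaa
Irf1 (chr11:53769764-53770063, plus strand): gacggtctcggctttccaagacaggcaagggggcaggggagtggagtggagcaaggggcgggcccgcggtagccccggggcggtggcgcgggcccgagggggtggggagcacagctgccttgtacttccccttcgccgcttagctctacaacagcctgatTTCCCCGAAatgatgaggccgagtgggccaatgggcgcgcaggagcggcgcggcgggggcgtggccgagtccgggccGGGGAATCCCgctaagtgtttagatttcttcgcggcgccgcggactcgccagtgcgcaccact
Irf2 (chr8:46739495-46739794, plus strand): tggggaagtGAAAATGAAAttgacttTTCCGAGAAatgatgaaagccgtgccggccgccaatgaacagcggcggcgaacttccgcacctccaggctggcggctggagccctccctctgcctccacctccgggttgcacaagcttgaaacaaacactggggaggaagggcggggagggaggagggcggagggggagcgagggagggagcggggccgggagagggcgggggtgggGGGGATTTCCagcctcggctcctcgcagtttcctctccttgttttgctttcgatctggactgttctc
Irf8 (chr8:120736108-120736407, plus strand): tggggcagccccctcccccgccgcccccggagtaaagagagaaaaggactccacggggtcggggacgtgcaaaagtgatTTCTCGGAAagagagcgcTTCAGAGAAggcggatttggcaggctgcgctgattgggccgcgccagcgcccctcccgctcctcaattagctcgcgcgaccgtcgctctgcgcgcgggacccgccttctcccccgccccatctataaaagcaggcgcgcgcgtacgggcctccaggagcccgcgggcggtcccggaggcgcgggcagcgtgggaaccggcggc
The motifs searched, on both strands, were the STAT-dimer site GAS (TTCNNNGAA), the interferon-stimulated response element ISRE (GAAA, any 2 bases, GAAA), the AP-1 site TGANTCA, and the kappaB site. Counts are of windows, set beside the share of all 32851 promoters and of the 11358 promoters of listed genes. The GAS motif was found in 3 of 11 windows (of Irf1, Irf2 and Irf8), against 8.30% of all promoters and 6.71% of those of listed genes. In Irf1 it reads TTCCCCGAA and begins at -90 from the start site, and in Irf8 it occurs as TTCTCGGAA at -171 and TTCAGAGAA at -153. Irf2 had TTCCGAGAA at -224 and the only ISRE match in the 11 windows, GAAAATGAAA at -241. That motif is held by 3.44% of all promoters and 3.05% of those of listed genes. The kappaB motif was found in Irf1 (GGGGAATCCC at -13) and Irf2 (GGGGATTTCC at -17), 2 of 11 windows against 8.46% of all promoters and 10.4% of those of listed genes. No AP-1 match lay in any of the 11 windows, against 7.81% of all promoters and 4.89% of those of listed genes. The matches do not overlap each other. These letters describe the windows and were not tied to binding in these cells, and Irf4 had no match to any of the 4 motifs in its window. Irf9, which also changed with the culture, had no match in its windows, which are not printed.

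Levels between genes are given per length, as the deposited FPKM (fragments scaled to gene length and library size). Irf4 was the highest IRF gene in every library and Irf7 the lowest. Irf4 had 38.6 FPKM in Tfh-like Tox2, 95.6 in Tfh-like GFP, 38.1 in Th0 Tox2 and 67.8 in Th0 GFP. It made up 28.7%, 49.9%, 30.3% and 41.8% of the summed FPKM of the 8 genes in that order. The sum itself was 134.5 FPKM in Tfh-like Tox2, 191.6 in Tfh-like GFP, 126.0 in Th0 Tox2 and 162.3 in Th0 GFP, lower in each Tox2 library than in its GFP library. Without Irf4 the other 7 genes summed to 95.9 FPKM in Tfh-like Tox2 and 96.1 in Tfh-like GFP, and 87.9 in Th0 Tox2 and 94.5 in Th0 GFP, so most of the difference was Irf4. The median FPKM of all listed genes stayed between 6.67 and 7.12, so the 8 genes except Irf7 lay above it in all 4 libraries. Below Irf4 the order changed with the culture. Irf8 came 2nd or 3rd in the Th0 libraries and 6th or 7th in the Tfh-like libraries, while Irf1 came 3rd or 4th in Tfh-like and 7th in Th0. Counting intervals of several neighbours in the order overlapped, such as Irf3 and Irf8 in Th0 Tox2, and Irf9 and Irf1 in both Th0 libraries. In Tfh-like GFP each gene from Irf3 (2nd) to Irf8 (6th) overlapped the next one. The ranks of Irf1 and Irf8 in that library are therefore not separated from their neighbours. The steps at the ends, from Irf4 to the second gene and from the seventh gene to Irf7, did not overlap in any library.

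**Figure D1:**
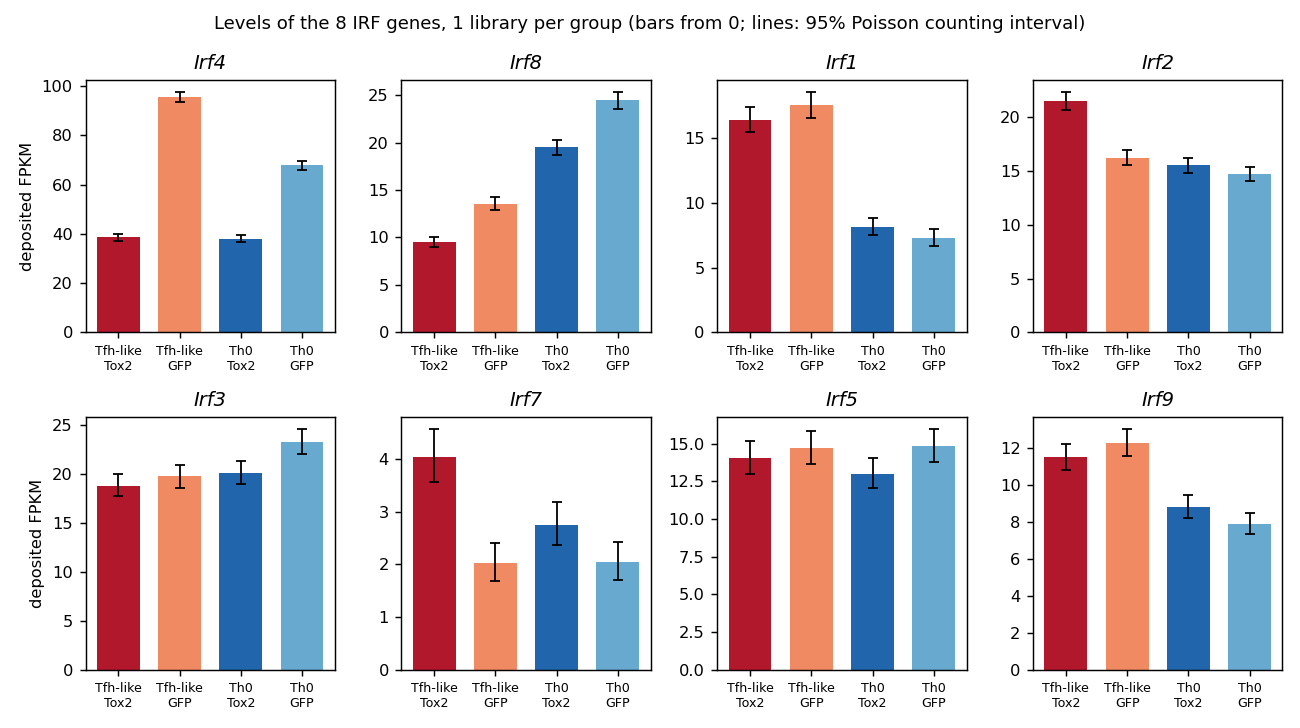
Deposited FPKM (y axis, from 0, a scale for each gene) of the 8 IRF genes in the 4 libraries, in the order Tfh-like Tox2, Tfh-like GFP, Th0 Tox2, Th0 GFP; lines are exact 95% Poisson intervals for counting error. Irf4 stands at 38.6 and 38.1 FPKM in the Tox2 libraries, below 95.6 and 67.8 in the GFP libraries, and Irf1 and Irf8 separate by culture.

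Irf4 (chr13:30749226-30766976, plus strand, GRCm38) was the IRF gene with the largest fall with Tox2. It had 3146 counts in Tfh-like Tox2 against 7632 in Tfh-like GFP, and 3224 counts in Th0 Tox2 against 5652 in Th0 GFP. Both Tox2 libraries were lower than both GFP libraries, and the Tox2 libraries of the 2 cultures lay closer to each other than the GFP libraries did. Over both cultures Irf4 fell by 1.09 on the log2 scale (SE 0.13, edgeR quasi-likelihood test, adjusted p = 0.0102), which is 2.12-fold. The fit joins all 4 libraries in 1 additive model of culture and virus with 1 residual degree of freedom, so its error is the difference of the Tox2 effects between the cultures, moderated over all genes, and not the spread between replicates. As in any bulk sample, fewer cells with Irf4 and less Irf4 RNA per cell cannot be told apart. Within Tfh-like the fold was -1.31 (95% counting interval -1.37 to -1.25) and within Th0 it was -0.86 (-0.92 to -0.79).

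Of the 8 genes, Irf4 alone passed for Tox2, so 1 of 8 was called, lower, where 6.81% of all 10960 genes tested were called, 2.74% lower and 4.07% higher. The median log2 fold was -0.07 over the 8 genes and 0.00 over all genes. At an unadjusted p under 0.05 there were 3 of the 8 genes and 3003 genes in all. Irf8 (chr8:120736358-120756694, plus strand), the related partner-dependent factor, was lower with Tox2 in each culture. It had 1116 counts in Tfh-like Tox2 and 1557 in Tfh-like GFP, and 2374 in Th0 Tox2 and 2934 in Th0 GFP. The Tox2 fold of Irf8 over both cultures was -0.43 (SE 0.10, adjusted p = 0.0592 by edgeR), which missed the threshold but passed under 3 of the alternatives (adjusted p = 0.0330 to 0.0470). Its pair folds were -0.52 (-0.63 to -0.40) in Tfh-like and -0.35 (-0.43 to -0.27) in Th0.

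Irf7, which amplifies type I interferon responses, was the least abundant and stood the other way. Irf7 (chr7:141262706-141266481, minus strand) had 253 counts in Tfh-like Tox2 against 124 in Tfh-like GFP, and 179 in Th0 Tox2 against 131 in Th0 GFP. The Tox2 libraries were the 2 highest, but the difference over both cultures (0.70, SE 0.21, adjusted p = 0.0930 by edgeR) missed the threshold. In Tfh-like the fold was 0.98 (0.68 to 1.31) and in Th0 0.40 (0.07 to 0.74). Irf2 (chr8:46739732-46847458, plus strand) gave 2645 counts in Tfh-like Tox2 and 1957 in Tfh-like GFP, but 1981 and 1850 in the Th0 libraries with Tox2 and GFP, and did not pass (0.23, adjusted p = 0.275). The interferon-activated genes Irf1 (0.01) and Irf9 (0.02), and Irf3 (-0.16; chr7:44997648-45002848, plus strand) and Irf5 (-0.15; chr6:29526625-29541871, plus strand), had Tox2 folds under 0.2 in size, none of which passed.

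**Figure D2:**
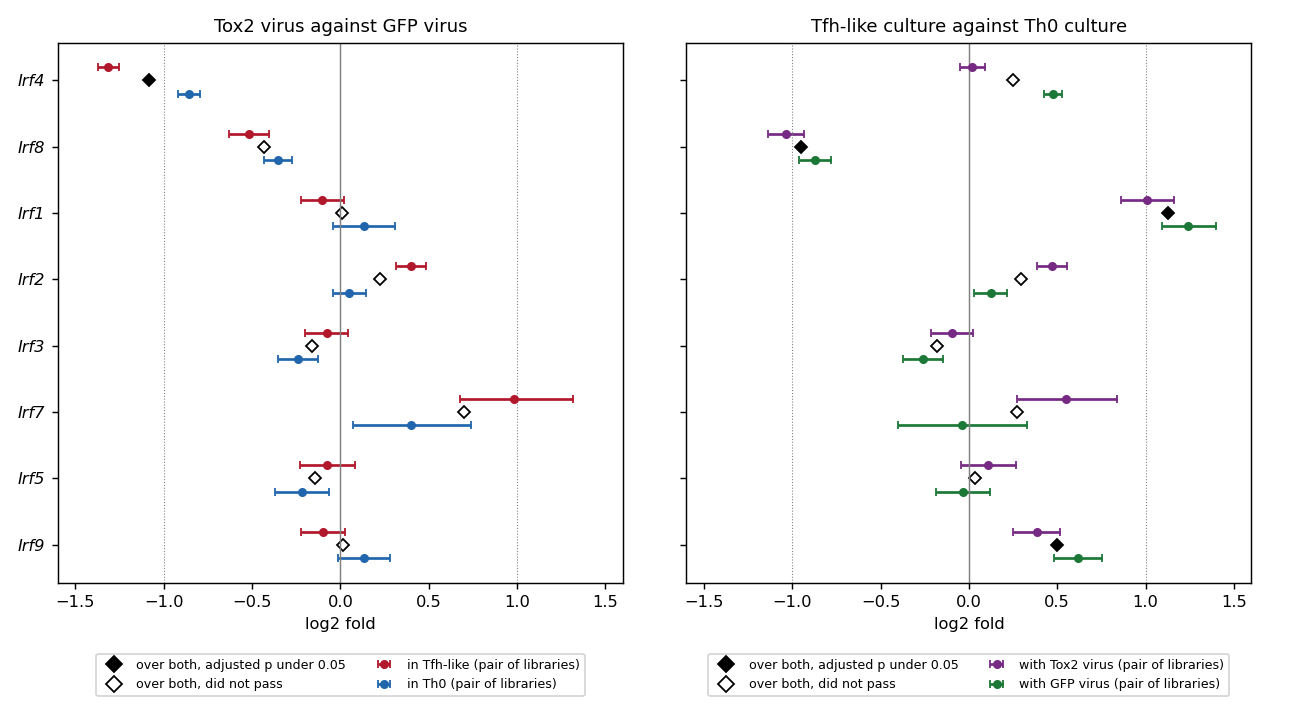
Log2 folds (x axis) of the 8 IRF genes with Tox2 against GFP (left) and in Tfh-like against Th0 (right). Circles are pairs of libraries with 95% counting intervals, diamonds are the edgeR fits over both, filled where the adjusted p is under 0.05; Irf4 stands apart at left (-1.09) and Irf1 (1.13), Irf8 (-0.95) and Irf9 (0.50) are filled at right.

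Between the cultures, Irf1 and Irf9 rose and Irf8 fell in Tfh-like. Irf1 (chr11:53770014-53778374, plus strand) had 1086 counts in Tfh-like Tox2 and 1137 in Tfh-like GFP, against 560 in Th0 Tox2 and 494 in Th0 GFP. Both Tfh-like libraries were above both Th0 libraries, whichever virus was used. The culture fold of Irf1 over both viruses was 1.13 (SE 0.11, adjusted p = 0.00116 by edgeR), or 2.18-fold. Its pair folds were 1.01 (0.86 to 1.16) with Tox2 and 1.24 (1.09 to 1.40) with GFP.

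Irf8 had its lowest level in Tfh-like Tox2 (9.53 FPKM) and its highest in Th0 GFP (24.5 FPKM), a span of 2.57-fold. It fell by 0.95 on the log2 scale in Tfh-like (SE 0.10, adjusted p = 0.00170 by edgeR), and both Tfh-like libraries were lower than both Th0 libraries. The pair folds were -1.03 (-1.14 to -0.93) with Tox2 and -0.87 (-0.96 to -0.78) with GFP. Irf9 (chr14:55603571-55610030, plus strand), the ISGF3 subunit, had 1030 and 1076 counts in Tfh-like Tox2 and GFP, and 819 and 722 in Th0 Tox2 and GFP. It rose by 0.50 (SE 0.11, adjusted p = 0.0197 by edgeR), the smallest of the 3 changes. With DESeq2 the same value was 0.49 with an adjusted p of 0.0783, which did not pass. So 2 of the 8 genes were then called for the culture, where DESeq2 called 14.7% of all genes.

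For the culture, 3 of 8 genes were called, 2 higher and 1 lower, where 24.2% of all genes were called, 14.3% higher and 9.96% lower. Scaled by the sum of listed counts, the share of higher genes among all calls was 47.6% in place of 58.9%. With that scaling 3 IRF genes were again called, where 28.7% of all genes were. The median was 0.26 over the 8 genes against -0.01 over all genes. At an unadjusted p under 0.05 there were 4 of 8 genes and 4120 in all. Irf4 did not pass for the culture (0.25, adjusted p = 0.221). Its Tfh-like and Th0 libraries were at 3146 and 3224 counts with Tox2, a fold of 0.02 (-0.05 to 0.09), and at 7632 and 5652 with GFP, a fold of 0.48 (0.43 to 0.53). Irf2 (0.30), Irf7 (0.28), Irf3 (-0.18) and Irf5 (0.04) did not pass. Irf5 was the steadiest of the 8, with the highest library 1.14-fold above the lowest, and Irf3 ranged between 18.8 and 23.3 FPKM.

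The Tox2 fold was larger in size in Tfh-like than in Th0 for Irf4, Irf7, Irf2 and Irf8. The difference of folds (Tfh-like minus Th0) was -0.46 for Irf4 (delta-method counting interval -0.54 to -0.37), 0.58 for Irf7 (0.14 to 1.03) and 0.35 for Irf2 (0.22 to 0.47). For Irf8 it was -0.16 (-0.30 to -0.03), and for Irf1 and Irf9 it was -0.23 each (-0.45 to -0.02 and -0.42 to -0.04). The single Tox2 folds of Irf1 and Irf9 were 0.13 each in Th0 and -0.10 each in Tfh-like, and all their counting intervals included 0. For Irf3 and Irf5 the interval of the difference included 0. No gene of the 8 differed by 2-fold here, where 3.73% of all genes did. This difference uses the only residual degree of freedom, so it was not tested. In single pairs, 0 of 8 genes were 2-fold apart for Tox2 in Th0 (4.74% of all genes) and 1 of 8, Irf4, in Tfh-like (4.75%). Tfh-like and Th0 gave 2 of 8 with Tox2, Irf1 and Irf8 (9.43% of all genes), and 1 of 8 with GFP, Irf1 (10.9%). The 2 with Tox2 lie close to the 2-fold line, and neither stays past it with the length trend removed (0.999 for Irf1 and -0.98 for Irf8).

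Ratios within a library do not depend on the library scaling and show how the balance of related factors stood. Irf4 over Irf8 was 4.06 (counting interval 3.79 to 4.35) in Tfh-like Tox2 and 7.05 (6.68 to 7.45) in Tfh-like GFP, and 1.95 (1.85 to 2.06) in Th0 Tox2 and 2.77 (2.65 to 2.90) in Th0 GFP. The intervals did not overlap, so the ratio was higher in Tfh-like and lower with Tox2 in each culture. Irf1 over Irf2 was 0.764 in Tfh-like Tox2, 1.08 in Tfh-like GFP, 0.526 in Th0 Tox2 and 0.497 in Th0 GFP. Here the 2 Th0 libraries overlapped (0.478 to 0.578 and 0.449 to 0.549), while those of Tfh-like did not. Irf3 over Irf7 was 4.66, 9.78, 7.31 and 11.4 in the same order, lower with Tox2 in each culture.

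**Figure D3:**
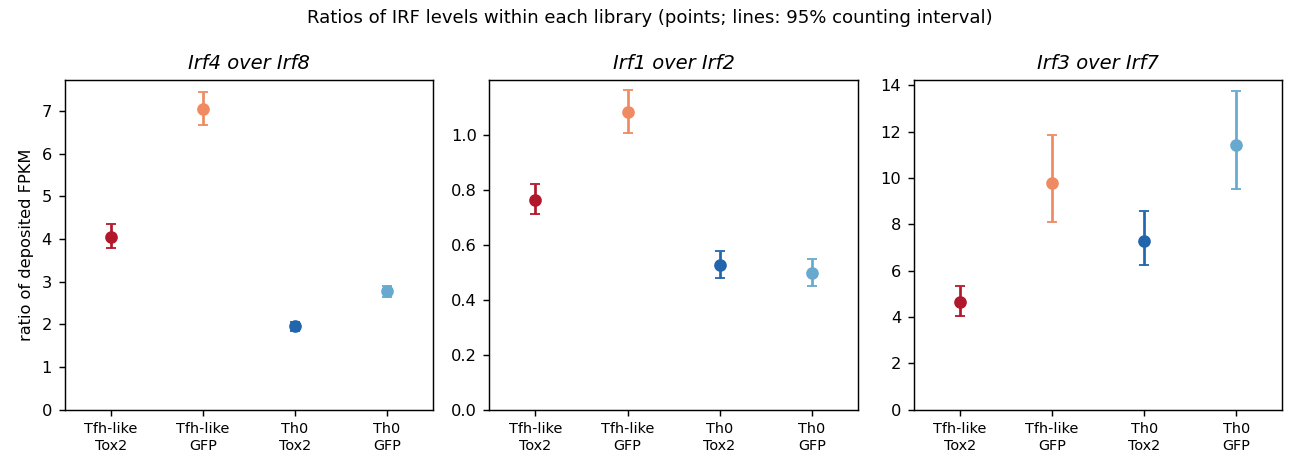
Ratios of deposited FPKM within each library (y axes from 0) for Irf4 over Irf8, Irf1 over Irf2 and Irf3 over Irf7; lines are 95% counting intervals. Irf4 over Irf8 is highest in Tfh-like GFP (7.05) and lowest in Th0 Tox2 (1.95), and Irf3 over Irf7 is lower in each Tox2 library than in its GFP library.

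Genes with the nearest profile were taken for the 3 IRF genes whose log2 CPM spans at least 1, Irf4, Irf8 and Irf1, by Euclidean distance between centred log2 CPM over 4 libraries among 9714 genes. For Irf4 they were Galnt3 (distance 0.207), an enzyme of O-linked glycosylation, F2rl3 (0.222), a thrombin receptor, and Cdc42bpb (0.268), a kinase bound by Cdc42. Galnt3 had 292 counts in Tfh-like Tox2 and 622 in Tfh-like GFP, and 265 and 431 in Th0. For Irf8 they were Id3 (0.108), an inhibitor of E proteins, with 648 and 885 counts in Tfh-like Tox2 and GFP and 1316 and 1801 in Th0, then Rasgrp2 (0.135) and Znhit6 (0.140). For Irf1 they were Klhl6 (0.0358), Nfatc2 (0.0850), a calcium-regulated factor that partners IRF4, and Map4k4 (0.0871). These are descriptions over 4 libraries that share 2 viruses and 2 cultures, with no test.

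**Figure D4:**
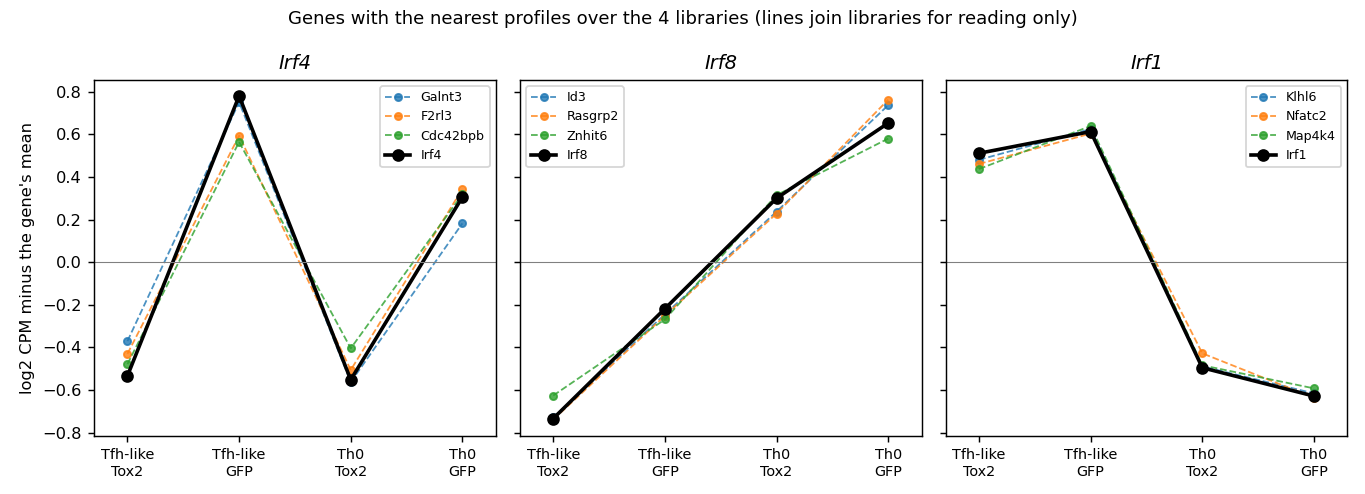
Log2 CPM minus each gene's mean (y axis) over the 4 libraries for Irf4, Irf8 and Irf1 (black) and the 3 genes nearest to each; lines join libraries only to aid reading. The Irf4 panel is low in both Tox2 libraries, Irf8 runs upward to Th0 GFP, and Irf1 is high in both Tfh-like libraries.

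The rest of the IRF pathway was described by lists, upstream genes first, whose counts stand beside 6.81% of all genes called for Tox2 and 24.2% for the culture, and whose medians stand beside 0.00 and -0.01. Some genes are on 2 lists (Ikzf3, Batf3, Il12rb1 and Dhx58 among those named) and count in both. The lists were chosen with earlier results of these data known, so their counts are descriptions and not a test. Of 14 tested interferon receptor, JAK, STAT and phosphatase genes, 0 passed for Tox2 by edgeR, DESeq2 or limma-voom, while 5 rose and 1 fell in Tfh-like (median folds 0.13 and 0.21). Jak2, a receptor-associated kinase, had 8632 and 8319 counts in Tfh-like Tox2 and GFP against 4278 and 3332 in Th0 and rose by 1.21. Stat2, which joins Irf9 in ISGF3, rose by 0.76, as did the receptor subunit Ifngr1 (0.54) and the phosphatase Ptpn2 (0.78), and Ptpn11 fell by 0.71. Among 18 tested sensors, adaptors and kinases upstream of Irf3, Irf5 and Irf7, 0 passed for Tox2 by any of the 3 tools, and 6 rose and 2 fell in Tfh-like (medians 0.07 and 0.12). The RNA sensors Dhx58 (1.51) and Ddx58 (1.15) and the adaptor Myd88 (0.91) rose, and Tlr9, a DNA receptor, fell by 1.70 at 26, 23, 90 and 75 counts in library order. The IRF3 kinases Tbk1 and Ikbke did not pass for either effect.

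Of 12 tested DNA partners of IRF4 and IRF8, 6 rose and 2 fell in Tfh-like, with a median of 0.42 for the culture and 0.14 for Tox2. Batf had 4882 counts in Tfh-like Tox2, 2374 in Tfh-like GFP, 587 in Th0 Tox2 and 551 in Th0 GFP, and rose by 2.63 (SE 0.22, adjusted p = 0.000698 by edgeR). Its partner Jun rose by 1.77 and Batf3 by 3.24, at 4 to 44 counts, while SpiB (Spib, 4 to 62 counts) fell by 2.70. With Tox2, Ikzf3 alone of these 12 rose (1.58, SE 0.18), and Batf, at 0.56 (adjusted p = 0.158), did not pass. In the T-cell receptor list, 2 of 15 rose with Tox2, Plcg1 (0.69) and Nr4a1 (0.63), and in Tfh-like 2 rose and 4 fell, with Malt1 up by 1.36 and the signal-induced Nr4a1 down by 1.67 (medians 0.10 for Tox2 and 0.12 for the culture). Among 16 IRF cofactors and turnover genes, 1 fell with Tox2, Fkbp4 by 0.44, and 3 rose and 1 fell in Tfh-like (medians 0.02 and -0.02).

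The genes linked to IRF4 in T-cell effector programs moved both ways with Tox2, with 5 rising and 4 falling of 23. Ikzf2 (3.31), Bcl6 (1.45), Tigit (0.95), Rora (0.64) and Gata3 (0.60) rose, and Gzmb, Il17f, Il17a and Il12rb1 fell, the first by 3.13. Il17a, a Th17 cytokine, had 355 counts in Tfh-like Tox2 against 2125 in Tfh-like GFP, and 1 against 56 in Th0. In Tfh-like against Th0, 15 rose and 3 fell, with Il21 up by 8.28 and Il17a by 5.58. The medians were -0.08 for Tox2 and 0.76 for the culture. Of 21 tested antigen presentation and other genes linked to IRF1, 10 rose and 1 fell in Tfh-like, and with Tox2 3 fell, namely Gbp2, Cd274 and Il12rb1 (medians 0.45 for the culture and -0.11 for Tox2). Gbp2, a guanylate-binding protein, had 2675 and 5113 counts in Tfh-like Tox2 and GFP and 856 and 1284 in Th0, while Irf1 itself had a Tox2 fold of 0.01. Among 26 tested ISGF3- and IRF7-linked interferon genes, 9 rose and 2 fell in Tfh-like, and with Tox2 Parp14 rose by 0.51 and Zbp1 fell by 0.53. Their median fold was 0.34 for Tox2 and 0.47 for the culture, and Isg15, at 51, 19, 23 and 9 counts, did not pass (1.35, adjusted p = 0.0734). Of 7 tested genes linked to IRF8 and IRF5, Ikzf3 rose with Tox2, and Batf3 and Id2 rose in Tfh-like (medians 0.12 and -0.01).

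**Figure D5:**
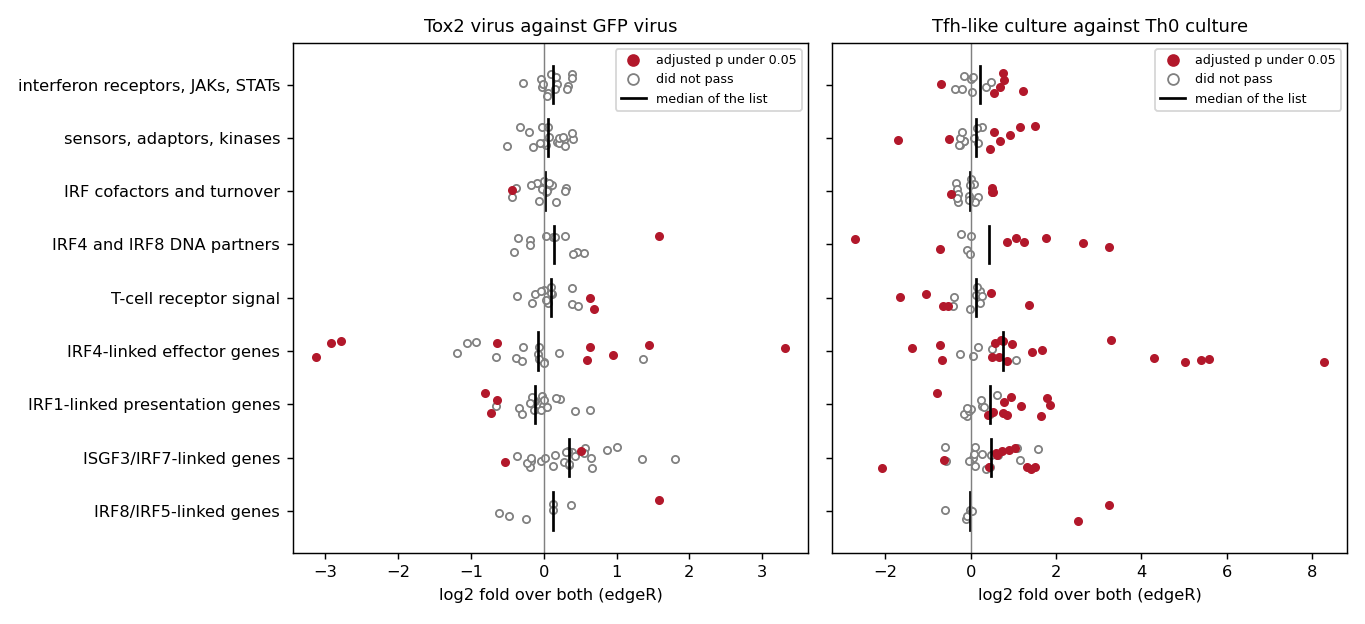
Log2 folds over both cultures or both viruses (x axis) of the tested genes of each list, filled red where the edgeR adjusted p is under 0.05, with the median as a black bar. IRF4-linked genes spread to both sides with Tox2 (5 higher and 4 lower), and the IRF1-linked list shows 10 higher and 1 lower in Tfh-like.

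Irf8, Irf5 and Irf4 are also high in other cell types, so their markers were set beside the values. B-cell markers summed to 29.7 and 29.9 CPM in Tfh-like Tox2 and GFP and to 10.2 and 2.90 in Th0, a sum that Ebf1 carried in Tfh-like. Ebf1, a B-lineage factor, had 385, 380, 118 and 20 counts in library order and rose in Tfh-like by 2.72, opposite to Irf8. Cd79a, a B-cell receptor subunit, had 13, 10, 24 and 19 counts, lower in both Tfh-like libraries as Irf8 was, and did not pass (-0.85, adjusted p = 0.180). Dendritic-cell markers summed to 46.0 and 49.9 CPM in Tfh-like and 34.5 and 37.7 CPM in Th0. Most of these counts were Bst2, which is also interferon-stimulated, at 550, 626, 431 and 464 counts, while Xcr1 had 21, 1, 3 and 10 and Zbtb46 45, 25, 45 and 33 counts, neither of which passed for the culture. Myeloid markers summed to 14.3 and 8.27 CPM in Tfh-like and 12.5 and 10.3 CPM in Th0. The plasma-cell markers Sdc1 and Xbp1 summed to 279 and 343 CPM in Tfh-like and 151 and 151 CPM in Th0. Sdc1 fell with Tox2 by 0.97 as Irf4 did, while Xbp1 (0.02) and Prdm1 (0.00, at 9 to 29 counts) did not pass for Tox2. The NK-cell markers Klrd1 and Prf1 summed to 34.0 and 39.4 CPM in Tfh-like and 4.61 and 3.72 CPM in Th0, and both rose in Tfh-like, as Irf1 did, while Cd8b1 had 9.14 to 15.4 CPM in all. The part of these markers in the IRF results was not tested. Several of these genes are also expressed by activated T cells.

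Whether reads were counted by strand is not given in the sources used here, and exons of 4 members overlap those of a listed neighbour. The shared exonic bases are 88 for Irf3 with Bcl2l12, 411 for Irf5 with Tnpo3, 45 for Irf7 with Phrf1 and 123 for Irf9 with Rnf31, the last on the same strand. None of these neighbours passed for either effect, Rnf31 standing at 0.34 for the culture (adjusted p = 0.0907). Irf4 and Irf8 overlap no listed neighbour. Among neighbours that are not listed, Gm17334 shares 135 exonic bases with Irf1 on the other strand. Gm20388, also not listed, overlaps Irf8 on the same strand with 0 shared exonic bases.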

How the data were processed

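RNA-seq was measured in 4 libraries, 1 per group, named by their titles. Per the file headers, the authors deposited unnormalized whole-number read counts per gene, and FPKM beside them. Tools listed in the submitters' processing notes are MACS2, edgeR, Subread, featureCounts, Bowtie2 and Trim Galore 0.4.4, with build mm10; their roles, the annotation and the use of strand are not given there. Gene lengths implied by the FPKM agreed within 10% of a common factor with GENCODE M21 exon unions for 94.5% of 9717 genes.

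Counts were scaled by TMM over the 11027 listed genes. Genes reaching a CPM of 1 in any library (10960) were tested with edgeR 4.0.16 (R 4.3.3): quasi-likelihood, additive culture and virus, Benjamini-Hochberg adjustment, threshold 0.05. Each SE is the size of the log2 fold divided by the square root of the F statistic of that test, so it is not independent of the p-value. Pairs of libraries were compared by log2 fold of CPM with a prior count of 2 and an exact 95% conditional binomial interval, called 2-fold apart at a log2 size of at least 1 with an interval excluding 0. Intervals and floors (3 counts) cover counting error only. With 1 library per group no p-value measures replicate spread. Alternatives used DESeq2 1.42.0, limma 3.58.1 and other filters and scalings; code was tested on simulated data. The genes named are the 8 members, Tox2, up to 4 called genes per list and effect, and the 3 nearest profiles; others were chosen after their values were seen. Members and lists were chosen with earlier results of these data known. Positions are from GENCODE M21 (GRCm38), promoters from RefSeq. Some genes that the lists hold are not reported here.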

Additional observations from a re-analysis of the deposited data

How the results depend on the processing

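No paired analysis was possible because there was 1 library per group and the labels give no replicate numbers; for the same reason no replicate could be left out. The fall of Irf4 with Tox2 passed under every alternative run (adjusted p 7.36e-09 to 0.0155), as did the culture changes of Irf1 (1.18e-06 to 0.00182) and Irf8 (2.30e-07 to 0.00253), while that of Irf9 was lost with DESeq2. Irf8 also passed for Tox2 with limma-voom (adjusted p = 0.0470), scaling by the sum of listed counts (0.0330) and the length trend removed (0.0408), which made 2 IRF genes called. In the same order, 8.23%, 10.9% and 5.57% of all genes were called for Tox2. Over all alternatives the adjusted p of Irf8 was 0.0330 to 0.115. With sum scaling, the Tox2 fold of Irf7 in Tfh-like was 1.01 against 0.98, just past the 2-fold line. Between the cultures with Tox2, Irf1 was at 0.996 with a prior count of 10, against 1.01. It was at 0.96 with sum scaling, 0.99 with DESeq2 size factors and 0.999 with the length trend removed. In the same order Irf8 was at -1.03, -1.08, -1.05 and -0.98, against -1.03. The cause was not tested. Shares of all genes 2-fold apart under these alternative settings are not given here. Irf2 with Tox2 in Th0 was -0.04 with the length trend removed, against 0.05. Over all genes, Tox2 calls were 492 with DESeq2 and 1193 with sum scaling against 746, and culture calls 1609 with DESeq2 against 2656. Fold and gene length correlated across genes (Spearman rho 0.301 for Tox2 in Th0 and 0.125 in Tfh-like). The share of all genes called for the culture was 24.2% in the main fit, 14.7% with DESeq2 and 25.2% with the length trend removed. For Tox2 it was 6.81%, 4.49% and 5.57% in that order. Of ISGF3- and IRF7-linked genes, 7 passed for the culture with DESeq2 against 11. For Tox2, 0 of them passed with DESeq2 and 1 with the length trend removed, against 2. Cofactor calls for the culture were 7 with the length trend removed against 4. For Tox2 they were 0 with the length trend removed or with DESeq2, against 1. T-cell receptor calls for Tox2 were 1 with the length trend removed against 2. An added scaling over the tested genes alone, chosen after seeing the data, changed no IRF call. Irf7, at 124 to 253 counts, had the widest intervals.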
